A study of Gallus gallus with 51 samples.

Results

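TRIP15 and CUTL1 are regulators of the cyclin-dependent kinase inhibitor p27, and each was read here by 1 probe, 2 of the 1509 gene probes on a transcription factor array. The probes were found by their gene name in the scanner files, and each was spotted 2 times. Both genes were chosen by the study on neomycin over control differences in inner ear epithelia that include these samples, so their ratios and their detection are given below as a description, with no test. The samples were sensory epithelia, sheets of hair cells and supporting cells freed from the cochlea (the hearing organ) of young post-hatch White Leghorn chicks. Whole cochleae had been cultured for a day with the antibiotic neomycin, which is toxic to hair cells, and were collected at the end of treatment (0 hr) or after 24 or 48 hr in neomycin-free medium, each beside untreated cochleae of the same age in culture. Every biological replicate was a pool of epithelia, its RNA was amplified before labelling, and each time point had 3 replicates. Neomycin and time-matched control RNA were hybridised together in Cy3 and Cy5 on 51 arrays, with 17 at 0 hr, 16 at 24 hr and 18 at 48 hr. Titles ending in suffix 3 had neomycin RNA in Cy3 and those in suffix 5 had it in Cy5, and the dye named for neomycin in the file headers was that of the suffix on 51 of 51 arrays. The probes were designed to human genes, so every signal is a cross-species hybridisation.

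p27, the product of CDKN1B, binds cyclin-dependent kinases and holds cells out of S phase. In the ear it is known for keeping supporting cells from dividing, and in birds supporting cells re-enter the cell cycle after hair cells die and replace them. CUTL1, now CUX1, is a cut-domain homeodomain protein that represses transcription of p27 among other cell cycle genes. TRIP15, now COPS2, is a subunit of the COP9 signalosome, a complex that removes NEDD8 from cullins and takes part in the export and breakdown of p27, and it is also known as a thyroid receptor interacting corepressor. No probe on the array was named for p27 itself, so its level was not read here. The chicken gene table used for names held COPS2 and CUX1 as symbols and CUTL1 as an older name of CUX1.

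Some arrays stood apart from the others. The mean correlation of an array with the other arrays of its own replicate, over the 1282 probes that passed a filter on dim probes, ran from -0.396 to 0.746, with a median of 0.311. The lowest belonged to array 2 of suffix 5 in replicate 3 at 0 hr. This array correlated at -0.643 with the suffix 3 array of its replicate, and at -0.262 and -0.283 with the other two suffix 5 arrays, so its direction is not settled and the 0 hr values are given with it as labelled, turned and left out. Array 3 of the same suffix and replicate named Cy5 for both RNAs in its headers. The share of spots at or below their local background had a median of 5.11% over arrays, but it lay between 38.9% and 84.7% in replicate 1 at 0 hr and between 17.6% and 78.7% in replicate 1 at 24 hr, and was 23.6% on array 1 of suffix 5 in replicate 2 at 48 hr. Hair cell markers on the array were above the negative controls in 5.88% to 34.3% of array-channels (1 RNA on 1 array) and supporting cell markers in 17.6% to 43.1%. The highest were POU4F3, a hair cell transcription factor, and SOX2, a supporting cell factor. Blood, connective tissue and melanocyte or glia markers reached at most 23.5%, 25.5% and 29.4%. Taken over gene means, the 4 hair cell markers had median log2 ratios of 0.0056, -0.025 and -0.15 at the 3 time points. The 4 supporting cell markers had 0.012, -0.11 and -0.035. Of the single markers, none of which passed the test, POU4F3 averaged -0.79 at 48 hr, with replicates at -1.60, -0.76 and -0.010 (limma, adjusted p = 0.784), and SOX2 averaged -0.99 at 24 hr (adjusted p = 0.588). Their part in the results was not tested.

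The first question was whether the probes gave a signal at all. The signal was set against 38 spots of 19 control oligonucleotides with no chicken counterpart, the negative controls, in the same array and dye, and a probe was counted as above them when it passed the 95th percentile of those spots. That limit rests on the brightest few control spots. In the control RNA on array 2 of suffix 5 in replicate 1 at 24 hr it was 19190 units, against a median of 1651. A probe that did not pass could thus still be brighter than the median control. The limit also differed between both RNAs of an array, so counts of passes do not compare their levels. TRIP15 was above the negative controls in 49 of 102 array-channels (48.0%), and CUTL1 in 59 of 102 (57.8%). TRIP15 was above them more often than 88.9% of the gene probes, and CUTL1 more often than 93.4%. Neither RNA passed on 25 of the 51 arrays for TRIP15 and on 16 for CUTL1. Of all gene probes, 4.77% were above the negative controls in at least 80% of array-channels at 0 hr, 1.72% at 24 hr and 3.84% at 48 hr. Of the members, CUTL1 at 48 hr met that mark. These shares are intensities that the study's own filter on dim probes used, and nothing further is read from them.

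Detection of TRIP15 was split by biological replicate. At 0 hr its neomycin RNA was above the negative controls on 1 of 7 arrays in replicate 1, 5 of 6 in replicate 2 and 3 of 4 in replicate 3. Its control RNA was above them on 3, 5 and 3 of the same arrays. At 24 hr TRIP15 passed on 1 of 8 arrays of replicate 1 in the neomycin RNA and on none in the control RNA, on 0 of 4 arrays of replicate 2 in either RNA, and on 4 of 4 arrays of replicate 3 in both. At 48 hr it passed on 0 of 8 arrays of replicate 1 and on every array of replicates 2 and 3, in both RNAs. The median neomycin signal of TRIP15 at 24 hr was 1076 units in replicate 1, 1363 in replicate 2 and 8975 in replicate 3, and the median control signal was 1210, 1588 and 12325. Thus the TRIP15 ratios of replicates 1 and 2 at 24 hr were ratios of signals near those of oligonucleotides without a target. In replicate 1 at 48 hr the log2 signal over the negative-control median averaged -0.021 in the neomycin RNA and 0.45 in the control RNA. On array 2 of suffix 5 in that replicate the values were 1.11 and 1.28, although neither RNA passed. In replicate 1 at 0 hr the neomycin signal was near that of the negative controls. It lay 0.053 above their median on the log2 scale, against 0.70 in the control RNA, so the size of that ratio is uncertain.

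CUTL1 followed another order. At 0 hr it was above the negative controls on 0 of 7 arrays of replicate 1 in both RNAs, and on 4 of 4 arrays of replicate 3 in both. In replicate 2 it passed on 4 of 6 arrays in the neomycin RNA and on 3 in the control RNA. At 24 hr the neomycin RNA passed on 1 of 8, 0 of 4 and 4 of 4 arrays of replicates 1, 2 and 3, and the control RNA on 0, 3 and 2 of them. At 48 hr the neomycin RNA passed on 16 of 18 arrays and the control RNA on 18 of 18. CUTL1 was thus best measured at 48 hr, where its control RNA lay 2.40, 1.29 and 2.01 above the median negative control on the log2 scale in replicates 1, 2 and 3. In replicate 1 at 0 hr, the same quantity for CUTL1 was -0.16, and 6 of 7 arrays had a signal at or below the local background in each RNA.

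**Figure D1:**
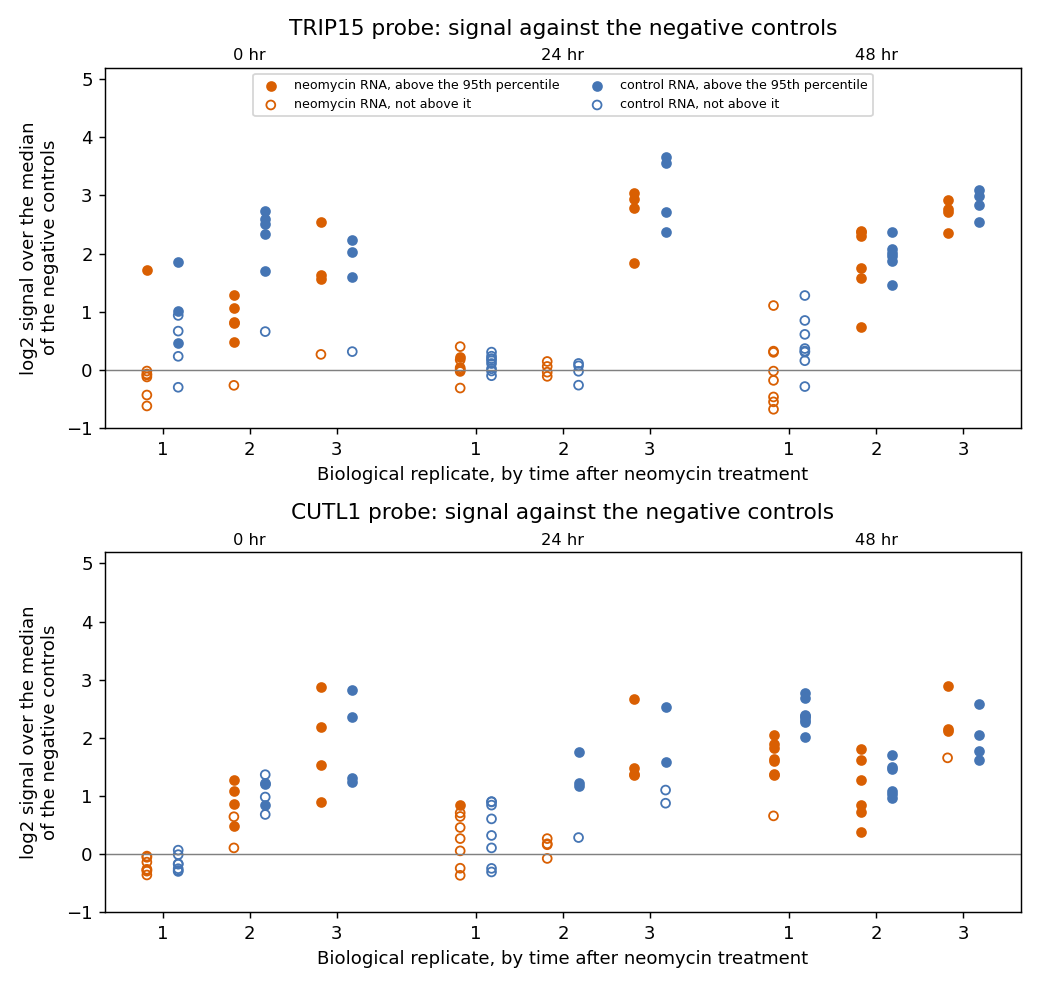
Signal of the TRIP15 and CUTL1 probes on 51 arrays, as log2 over the negative-control median of each array and dye (vertical axis), by time point and biological replicate (horizontal axis). Each point is 1 RNA on 1 array, filled where it passed the 95th percentile of the negative controls. TRIP15 was at the level of the negative controls in replicates 1 and 2 at 24 hr and well above them in replicate 3, and CUTL1 was above them on 16 of 18 arrays (neomycin RNA) and 18 of 18 (control RNA) at 48 hr.

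TRIP15 was lower in neomycin-treated than in control epithelia at 0 hr. The ratios are log2 neomycin over control after normexp background correction and loess within each array, so 0 means no difference from probes of like brightness on that array. The 0 hr replicate values were -0.73, -0.68 and -0.11, with a mean of -0.51 ± 0.35 (SD, n = 3), or 0.704-fold. In a pool of cells, fewer cells of a type and less RNA per cell cannot be told apart. All 3 replicates were below 0, as were those of 11.5% of the probes tested, and since the study's rule used this contrast nothing is read from that share. Over single arrays, 13 of 17 were below 0, with a range from -1.92 to 0.52 and a median of -0.59.

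The 3 replicates reached those values differently. In replicate 2 at 0 hr all 6 arrays were below 0, the suffix 3 mean was -0.41 and the suffix 5 mean -0.96, and the probe was bright, with a median signal of 2855 in the neomycin RNA and 11940 in the control RNA. In this replicate both dye orientations gave a lower TRIP15 value, and each RNA was above the negative controls on 5 of 6 arrays. In replicate 1 the suffix 3 arrays gave -1.34, -1.29, -1.92 and -1.12, while the suffix 5 arrays gave 0.13, -0.79 and 0.52. The neomycin signal of TRIP15 was at or below the local background on 6 of the 7 arrays of that replicate, and the control signal on 1. In replicate 3 the suffix 3 array gave -0.24 and the suffix 5 arrays 0.18, -0.59 and 0.50. The array at -0.59 is the one whose direction is not settled. With it left out, replicate 3 came to 0.049, and with its sign turned, to 0.091, so that 2 of 3 replicates were below 0. The mean at 0 hr was then -0.45 and -0.44.

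At 24 hr the TRIP15 replicate values were 0.14, 0.11 and 0.27, a mean of 0.17 ± 0.089 (SD, n = 3), or 1.13-fold. All 3 were above 0, as were those of 13.1% of the probes tested. The close replicate values covered a wide spread of arrays: 8 of 16 were below 0 and 8 above, from -1.17 to 1.03, with a median below 0.01. In none of the 3 replicates did the suffixes share a sign. Replicate 1 had 0.58 in suffix 3 and -0.31 in suffix 5, replicate 2 had -0.010 and 0.23, and replicate 3 had 0.71 and -0.16. In replicate 3, the one with a bright signal, the suffix 3 arrays gave 0.50 and 0.92 and the suffix 5 arrays -0.0086 and -0.31. The SD of the TRIP15 replicates at 24 hr was smaller than that of most probes, of which 7.96% had a smaller one, while the mean gap between the suffixes was 0.67.

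At 48 hr the TRIP15 replicate values were -0.49, 0.21 and -0.18, a mean of -0.16 ± 0.35 (SD, n = 3), or 0.897-fold. They lay on both sides of 0, as did the arrays, with 9 of 18 below it. Replicate 1, in which no array passed the negative controls, gave the lowest value, with -0.99 in suffix 3 and 0.0021 in suffix 5. In replicate 2 the suffix 3 arrays gave 0.55, 0.90 and 0.50 and the suffix 5 arrays -1.53, 0.34 and 0.46. The array at -1.53 lies far from the other 5 of its replicate, and without it the mean at 48 hr was -0.049. Replicate 3 was bright on all 4 arrays and stayed between -0.49 and 0.16. Of all tested probes, 16.1% were below 0 in all 3 replicates at 48 hr and 14.4% above it in all 3, and TRIP15 and CUTL1 were in neither share.

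The 24 hr replicates of TRIP15 all lay above its 0 hr replicates, as for 3.04% of the probes tested, and 0.858% had all 0 hr replicates below 0 and all 24 hr replicates above it. The mean ratio was 0.68 higher at 24 hr than at 0 hr (SE 0.24 from the fit across all probes), 0.33 lower at 48 hr than at 24 hr and 0.35 higher at 48 hr than at 0 hr. These differences were among those by which the gene was selected, and no test is given. With the unsettled array turned, the difference between 24 and 0 hr was 0.61. By suffix the difference was 1.11 in suffix 3 and 0.24 in suffix 5, where the 24 hr mean itself was -0.081. The suffixes are dye switches of the same pools, and the study's choice used both, so nothing is read from that.

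CUTL1 showed its largest values at 24 hr, and they went both ways. The replicate values at 24 hr were -0.15, -1.57 and 0.77, a mean of -0.32 ± 1.18 (SD, n = 3). This spread was wider than that of 96.3% of the probes tested, whose median SD at 24 hr was 0.27. Within replicates 2 and 3 the arrays did not overlap 0. In replicate 2 the suffix 3 arrays gave -1.95 and -2.92 and the suffix 5 arrays -0.97 and -0.44, all below 0, although the neomycin RNA of CUTL1 was not above the negative controls on any of these arrays, so that no fold is given. In replicate 3 the suffix 3 arrays gave 0.69 and 0.55 and the suffix 5 arrays 1.01 and 0.83, a value of 1.71-fold. The arrays of these pools thus lay on opposite sides of 0 with either dye. Ratios were wide across the suffix 3 arrays of replicate 2 as a whole, with SDs of 0.86 and 1.04, against 0.38 and 0.45 in replicate 3. In replicate 1 they were 0.69, 0.90 and 0.74, so wide ratios were not particular to replicate 2. In suffix 5 these SDs were 0.57 and 0.51 in replicate 2, 0.42 and 0.39 in replicate 3, and from 0.45 to 0.83 in replicate 1. SOX2, 1 of 4 supporting cell markers tested, was at -1.09, -2.00 and 0.13 in replicates 1, 2 and 3 at 24 hr. That is the same order of replicates as CUTL1, but the other markers of the list differed in order. PROX1 was at -0.28, -0.19 and 0.24, HEY1 at 0.20, -0.55 and -0.094, and GATA3 at 0.46, 0.28 and 0.18. At 24 hr SOX2 was above the negative controls on 75% of arrays in the neomycin RNA and 81.2% in the control RNA. The same shares were 0% and 0% for PROX1, 6.25% and 18.8% for HEY1, and 37.5% and 12.5% for GATA3. CUTL1 itself was above them on 31.25% of arrays in each RNA. The part of SOX2 in the CUTL1 values was not tested.

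The brightness of CUTL1 in those pools was as follows. In replicate 2 at 24 hr the median signal was 1517 in the neomycin RNA and 3781 in the control RNA, with 0 and 3 of 4 arrays above the negative controls. In replicate 3 it was 4086 and 3826, with 4 and 2 of 4 arrays above them. Replicate 1 was dim, with 1 of 8 arrays passing in either RNA, and its suffixes opposed each other, with -0.94 in suffix 3 and 0.64 in suffix 5. Among all probes, 13.7% were below 0 in all 3 replicates at 24 hr, and CUTL1 was not one of them.

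At 0 hr the CUTL1 replicate values were 0.087, 0.61 and 0.13, a mean of 0.27 ± 0.29 (SD, n = 3), or 1.21-fold. All 3 were above 0, as were those of 11.8% of the probes tested. The value of 0.61 in replicate 2 rested on suffix 3 alone, where the 3 arrays gave 1.16, 1.29 and 1.21 against -0.055, 0.14 and -0.10 in suffix 5. In replicate 1 no array was above the negative controls. With the unsettled array turned, the mean at 0 hr was 0.30 and replicate 3 was 0.22.

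At 48 hr, where the CUTL1 signal was brightest, the replicate values were -0.029, 0.056 and 0.20, a mean of 0.075 ± 0.12 (SD, n = 3), or 1.05-fold. The small values were averages of opposed suffixes in replicates 1 and 2. Replicate 1 had 0.48 in suffix 3 and -0.53 in suffix 5, and replicate 2 had 0.83 and -0.72. Replicate 3 had 0.12 and 0.28. Over single arrays the ratio ran from -1.96 to 1.28, and 12 of 18 were above 0. The array at -1.96 is the same array of replicate 2 that gave the lowest TRIP15 value of that replicate, and without it the CUTL1 mean was 0.18.

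The mean CUTL1 ratio was 0.59 lower at 24 hr than at 0 hr (SE 0.47), 0.39 higher at 48 hr than at 24 hr and 0.20 lower at 48 hr than at 0 hr. Without replicate 2 at 24 hr the CUTL1 mean at 24 hr was 0.31, which is 0.038 higher than at 0 hr. The order of the CUTL1 means, 0 hr above 48 hr above 24 hr, was therefore set by a single pool. For TRIP15 the order was 24 hr, 48 hr, 0 hr, and the 48 hr mean differed from the others by 0.33 and 0.35, beside an SD of 0.35 at 48 hr and at 0 hr and of 0.089 at 24 hr.

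**Figure D2:**
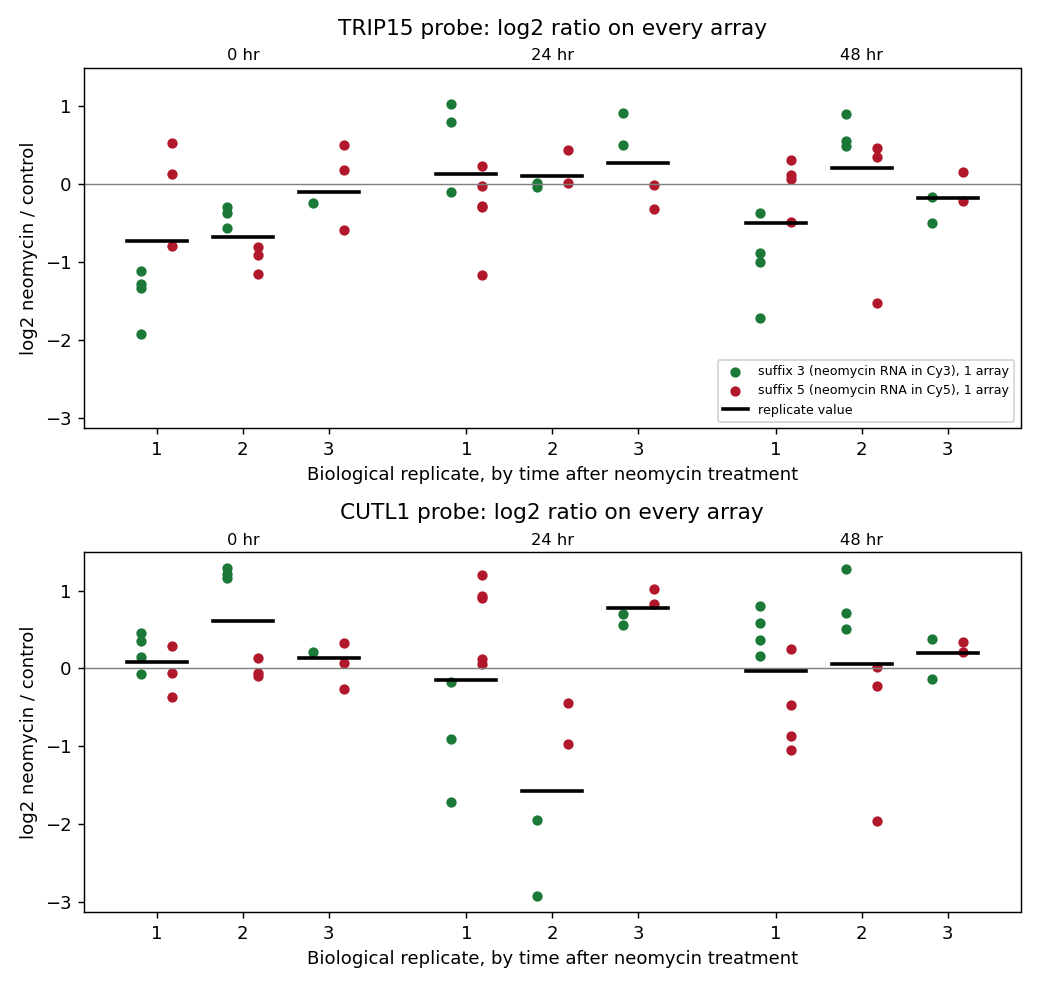
Log2 neomycin over control of the TRIP15 and CUTL1 probes (vertical axis) on every array, by time point and biological replicate (horizontal axis), with colours for the dye orientation and a black line for the replicate value, the mean of both suffix means. TRIP15 lay below 0 on all 6 arrays of replicate 2 at 0 hr, and CUTL1 lay below 0 on all 4 arrays of replicate 2 and above 0 on all 4 arrays of replicate 3 at 24 hr.

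A bias of the probes toward a dye is described for the members, with no test, since the study kept genes whose trend held in most hybridisations, dye switches included. The dye effect was 0.5 of the suffix 5 mean minus the suffix 3 mean, both as log2 neomycin over control. A positive value is thus toward Cy5. This dye effect averaged -0.0014 for TRIP15 (SD 0.42, n = 9, SE 0.11) and was toward Cy5 in 5 of 9 replicates. For CUTL1 it averaged -0.026 (SD 0.58, n = 9; SE 0.14) and was toward Cy5 in 4 of 9. No probe of the 1282 passed for a dye effect (limma at an adjusted p of 0.05, 0%), and 64 had an unadjusted p below 0.05. The dye effects of the members changed sign between replicates, from -0.44 to 0.68 for TRIP15 and from -0.78 to 0.86 for CUTL1. The full gap between the suffix means reached 1.37 for TRIP15 and 1.73 for CUTL1. By time point the CUTL1 values were -0.13, -0.61 and -0.083 at 0 hr, 0.79, 0.86 and 0.15 at 24 hr, and -0.50, -0.78 and 0.078 at 48 hr. The suffix means had the same sign in 3 of 9 replicates for TRIP15 and 4 of 9 for CUTL1. Over all tested probes, the share with the same sign in both suffixes ranged from 40.5% in replicate 1 at 0 hr to 68.8% in replicate 2 at 24 hr. The 2 spots of a probe on 1 array lay closer together than the suffixes, with a median gap of 0.22 for TRIP15 and 0.16 for CUTL1, and had the same sign on 39 and 46 of 51 arrays.

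**Figure D3:**
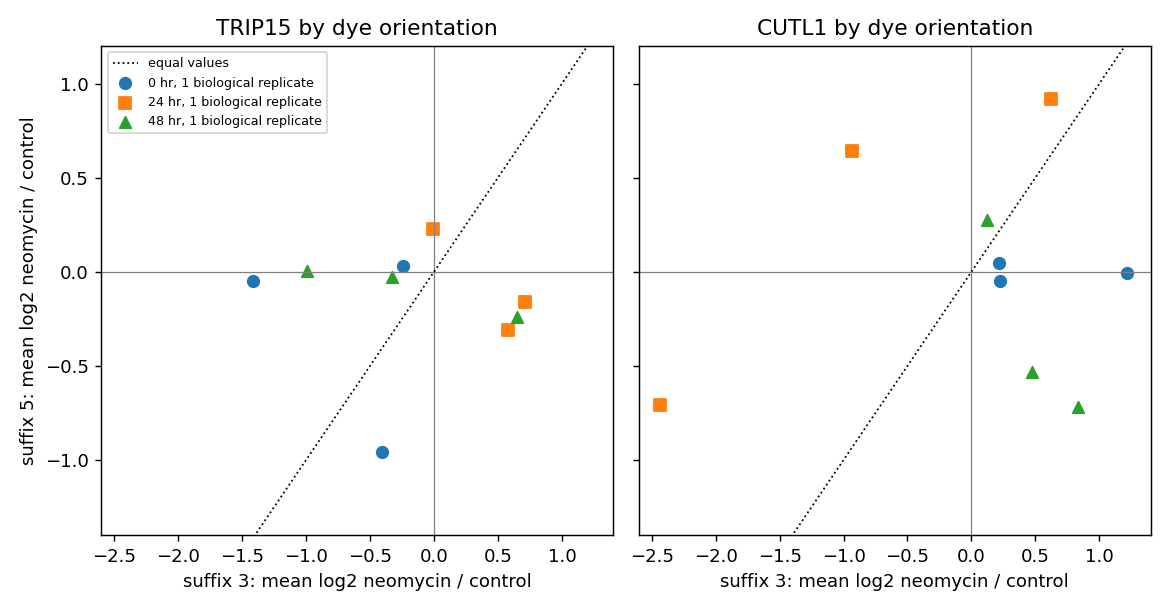
Mean log2 neomycin over control in suffix 3 (horizontal axis) against suffix 5 (vertical axis) for each biological replicate of TRIP15 and CUTL1, with the dotted line where both are equal. The points spread around the line rather than along it: the signs agree in 3 of 9 replicates for TRIP15 and 4 of 9 for CUTL1, and the lowest suffix 3 mean of CUTL1, -2.44 beside -0.71 in suffix 5, belongs to replicate 2 at 24 hr.

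The level in untreated epithelia over culture time was not itself a contrast used to choose the members. The control signal is, however, the denominator of the ratios that were used. The members' values below are therefore not free of that choice and are a description with no test. The control RNA was put on a common scale by quantile normalization of mean intensities between arrays. Its TRIP15 log2 level was 10.27, 11.14 and 11.63 at 0 hr, 8.90, 9.22 and 12.05 at 24 hr, and 10.42, 11.19 and 11.20 at 48 hr in replicates 1, 2 and 3. The means were 11.02 ± 0.69, 10.06 ± 1.73 and 10.93 ± 0.45 (SD, n = 3). The difference of -0.96 between 24 and 0 hr had an SE of 0.76, and the groups overlapped. For CUTL1 the control levels were 9.19, 10.13 and 12.16 at 0 hr, 10.26, 11.68 and 10.03 at 24 hr, and 12.88, 10.29 and 10.17 at 48 hr. Its differences were 0.16 for 24 against 0 hr, 0.46 for 48 against 24 hr and 0.62 for 48 against 0 hr, with an SE of 0.88. For TRIP15, 48 against 24 hr gave 0.88 and 48 against 0 hr -0.082. Of all probes, 0% passed for 24 against 0 hr (limma at an adjusted p of 0.05), 0.078% (1 probe) for 48 against 24 hr and 0% for 48 against 0 hr. At an unadjusted p below 0.05 the counts were 40, 62 and 69. The 1 probe, named here after its value was seen, was ZNF10, a zinc finger repressor, with a difference of -3.31 for 48 against 24 hr (adjusted p = 0.049), and it did not pass without the quantile step. The arrays set neomycin against control RNA and not time points against each other, so slide effects and time cannot be told apart in these levels.

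For both members, the replicates of 1 time point could differ by more than the time point means did. The control level of TRIP15 in replicate 3 at 24 hr stood at 12.05 against 8.90 and 9.22, and the neomycin level at 12.32 against 9.04 and 9.32. Both RNAs of TRIP15 moved together there, so its ratio changed far less than its level. In CUTL1 the neomycin level at 48 hr was likewise 12.85 in replicate 1 against 10.34 and 10.37. At 24 hr the CUTL1 levels did not move together. They were 10.26, 11.68 and 10.03 in the control RNA and 10.11, 10.11 and 10.80 in the neomycin RNA. Both RNAs were read on the same slides, so pool and slide cannot be told apart here.

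The other repressors of p27 named by the study were SIX6, an eye and pituitary homeodomain factor, and DACH, now DACH1, its corepressor partner. In neither did the ratio pass the test at any time point, and no probe on the array did (0% at 0, 24 and 48 hr, limma at an adjusted p of 0.05). At an unadjusted p below 0.05 there were 38, 107 and 58 probes, and the methods' t-test, run over replicate values, gave 44, 52 and 44 unadjusted and 0 adjusted. SIX6 replicates were -0.038, -0.00087 and 0.052 at 0 hr, 0.20, -0.74 and 0.25 at 24 hr, and -0.56, 0.038 and 0.048 at 48 hr. Its mean was -0.095 at 24 hr (adjusted p = 0.932) and -0.16 at 48 hr (adjusted p = 0.849). SIX6, like CUTL1, had its lowest value in replicate 2 at 24 hr. SIX6 was above the negative controls on 5.88% of arrays in each RNA at 0 hr and on 25% in each at 24 hr. DACH replicates were 0.0097, 0.031 and 0.036 at 0 hr, 0.12, -0.055 and -0.30 at 24 hr, and -0.056, -0.021 and -0.14 at 48 hr, with means of 0.025, -0.078 and -0.074 (adjusted p of 1.00, 0.915 and 0.908). DACH was above the negative controls on at most 11.8% of arrays in either RNA at any time point.

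The COP9 signalosome was represented by TRIP15 and COPS5, the subunit that carries the deneddylase activity and binds p27. COPS5 replicates were -0.21, -0.11 and 0.20 at 0 hr, -0.25, 0.25 and -0.15 at 24 hr, and 0.018, -0.058 and 0.084 at 48 hr. Its means were -0.041, -0.048 and 0.015 (limma, adjusted p of 1.00, 0.942 and 0.985), with an SE of 0.14. COPS5 was above the negative controls on 50% of arrays in each RNA at 48 hr. At 0 hr it was above them on 11.8% of arrays in the neomycin RNA and 5.88% in the control RNA. At 0 hr, where TRIP15 averaged -0.51, the other probe named for its complex lay within its own SE of 0. With so few arrays above the negative controls, that value does not show that COPS5 was unchanged.

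**Figure D4:**
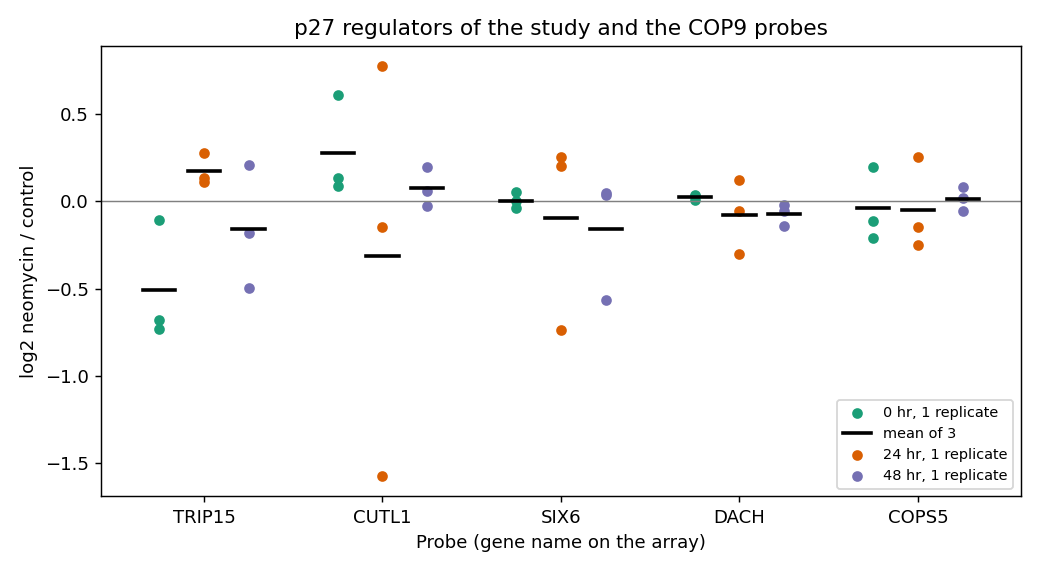
Log2 neomycin over control (vertical axis) of the probes for the p27 regulators named by the study and for the COP9 signalosome subunit COPS5 (horizontal axis), with 1 point per biological replicate and a black line for the mean of 3. The TRIP15 replicates at 0 hr lie from -0.73 to -0.11, the CUTL1 replicates at 24 hr run from -1.57 to 0.77, and DACH stays between -0.30 and 0.12.

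None of the remaining genes around the members passed the test. Of the other regulators of p27, 11 had a probe and 8 were tested, and 0 passed in either direction at any time point. Their median log2 ratios over the 3 time points were -0.035, -0.096 and -0.16, beside -0.0080, 0.0037 and -0.017 for all probes tested. The smallest p belonged to STAT3, a cytokine-activated factor, at 0 hr (0.15 ± 0.43, SD, n = 3, adjusted p at 1.00) and 24 hr (-0.26 ± 0.092, adjusted p = 0.724), and to NFYC, a subunit of a CCAAT-binding factor of the p27 promoter, at 48 hr (-0.36 ± 0.53, adjusted p = 0.784). At 24 hr STAT3 was above the negative controls on 0% of arrays in either RNA.

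Of the cut-domain genes beside CUTL1, 3 were on the array and tested, and 0 passed. ONECUT2, a relative of CUTL1 with 1 cut domain, was at -0.28, -0.27 and -0.28 in the 0 hr replicates and averaged -0.34 ± 0.36 at 48 hr (adjusted p = 0.784). At 0 hr ONECUT2 was above the negative controls on 5.88% of arrays in the neomycin RNA and 23.5% in the control RNA. SATB1, a chromatin organiser, averaged -0.15 ± 0.24 at 24 hr. The partners of TRIP15 as a corepressor numbered 4 tested, with 0 past the test. THRA, the thyroid hormone receptor, was at -0.33, -0.32 and -0.35 in the 0 hr replicates, a mean of -0.34 ± 0.018 (SD, n = 3, adjusted p at 1.00, unadjusted 0.057). It was above the negative controls on 17.6% of arrays in each RNA at 0 hr. THRB averaged -0.16 ± 0.13 at 24 hr and NR0B1, an orphan nuclear receptor, -0.31 ± 0.53 at 48 hr.

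Of the CUTL1 partners, 5 were tested and 0 passed. CREBBP, an acetyltransferase, averaged -0.21 ± 0.31 at 0 hr and -0.16 ± 0.040 at 48 hr (adjusted p = 0.826), and RBL1, a pocket protein, -0.18 ± 0.26 at 24 hr. The study's other cell cycle and apoptosis genes numbered 15 beside the members, all tested, and 0 passed. This list was drawn by the study from results that include these samples beside those of its other time courses. The smallest p among these 15 belonged to BCL11B at 0 hr (-0.27 ± 0.38) and to DEAF1 at 24 hr (-1.26 ± 1.80, adjusted p = 0.588). DEAF1 was at -3.32 in replicate 2 at 24 hr and at -0.055 and -0.40 in the other two replicates. The replicate with the lowest CUTL1 and SIX6 values was the one in which DEAF1 stood apart. Its suffix 3 arrays had wide ratios as a whole, with SDs of 0.86 and 1.04. Those of replicate 1 at 24 hr were wide too, with SDs of 0.69, 0.90 and 0.74.

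Between time points too, no probe passed: 0% for 24 against 0 hr, for 48 against 24 hr and for 48 against 0 hr, with 17, 51 and 19 at an unadjusted p below 0.05. In 1 pair of groups the values could be set side by side within a shared day of scan quantification, replicate 2 of 0 hr (5 of its arrays) and replicate 2 of 48 hr (6 arrays). Within it the TRIP15 ratio was 0.90 higher at 48 hr than at 0 hr and the CUTL1 ratio was 0.56 lower, against 0.35 higher and 0.20 lower over all replicates.

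The ratios of both members had little in common across the 9 biological replicates, with a Pearson r of -0.23 and a Spearman rho of -0.067, as a description of points that share arrays between the probes. Over the 51 single arrays r was -0.033. The probes most like TRIP15 were JIK, a kinase (r = 0.82), MADH4, now SMAD4, a mediator of TGF-beta signalling (r = 0.81), and ZNF162, now SF1, a splicing factor (r = 0.79), each over 9 replicates. JIK averages were -0.41, 0.11 and 0.085 in time order. MADH4 was above the negative controls in 26.5% of array-channels and ZNF162 in 2.94%. The probes most like CUTL1 were ANK1, an ankyrin (r = 0.95), ATSV, now KIF1A, a kinesin (r = 0.94), and FLJ20557 (r = 0.93), with Spearman rho of 0.88, 0.70 and 0.57. They were above the negative controls in 6.86%, 31.4% and 29.4% of array-channels, in that order. Their means at 24 hr were -0.61, -0.59 and -0.73. For CUTL1, 35 of 1281 probes had an r above 0.8, against 2 for TRIP15, and replicate 2 at 24 hr, at -1.57, is the point that lies farthest from the rest of its values.

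The members' means were set beside those from other ways of treating the same spots. TRIP15 at 0 hr stayed below 0 under all 18 alternatives, from -2.10 to -0.32. Its 24 hr mean ran from -0.081 to 0.43 and its 48 hr mean from -0.34 to 0.027. The CUTL1 mean at 0 hr lay between -0.045 and 0.55. Its 24 hr mean lay between -0.92 and 0.31, and its 48 hr mean between -0.33 and 0.48, so that only the 0 hr mean of TRIP15 kept its sign throughout the alternatives run. The study's choice of TRIP15 used this contrast and the alternatives share the same arrays, so nothing is read from that.

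**Figure D5:**
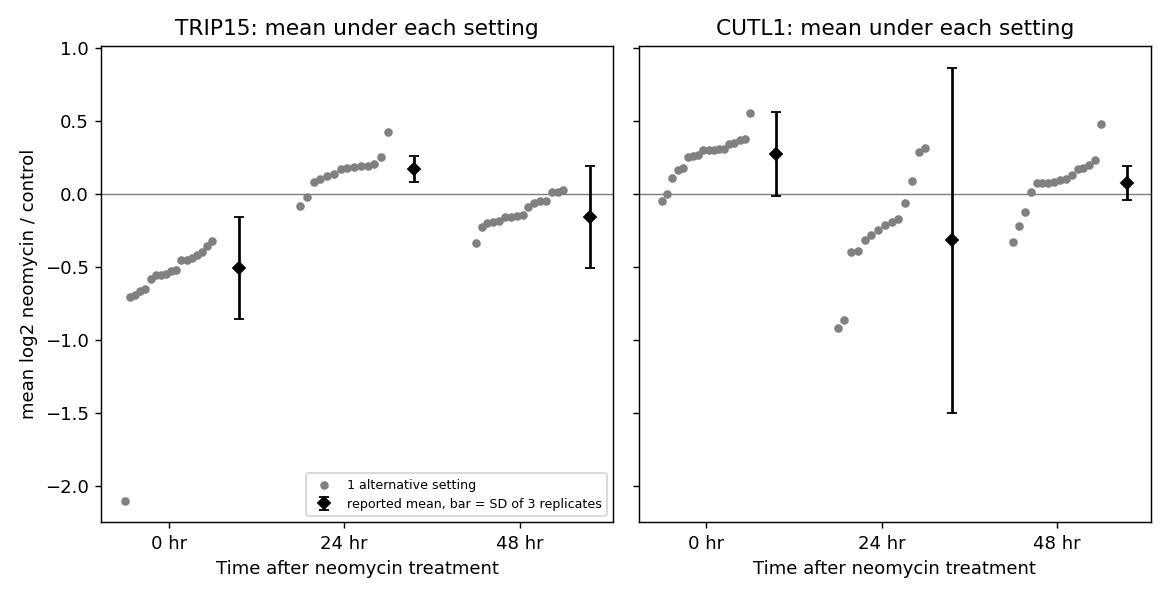
Mean log2 neomycin over control (vertical axis) of TRIP15 and CUTL1 at each time point (horizontal axis) under the reported setting (diamond, bar of 1 SD over 3 replicates) and under each alternative (grey points, sorted). The TRIP15 values at 0 hr all lie below 0, from -2.10 to -0.32, while each other set of points crosses 0.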

How the data were processed

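The members and the gene lists were chosen with earlier results of these data known. Per the file headers, the deposited scanner files were ImaGene 4.1 output with the signal and local background intensity of every spot in Cy3 and Cy5, not normalized. The authors also deposited log2 ratios per spot, which equalled the log2 ratio of neomycin to control signal means within 1e-06 in 51 of 51 columns and are thus before normalization. The study normalized by LOWESS, left out dim genes and kept genes with the same trend in most hybridisations.

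Here, spot signal and background means were corrected by normexp (offset 50), put through a loess fit per array (controls given no weight), turned to neomycin over control, and averaged over the 2 spots, over the arrays of a suffix, and over both suffixes. Each of 9 biological replicates counted once. The dimmest 15% of the 1509 gene probes were left out, and 1282 remained. limma 3.58.1 in R 4.3.3 fitted all 9 replicates with time point as the term (two-sided, Benjamini-Hochberg, adjusted p below 0.05), and was tested on simulated data. The 19 negative-control and 8 mismatch probes were left out of tests. Negative-control limits used signal means. The 3 pools per time point limit the precision of the tests, and the 4 to 8 arrays per replicate limit that of each replicate value. The labels call the replicates biological samples, and p-values measure the spread between those pools. Named genes were the members, every probe of the study's p27 list and the COP9 list, the gene of smallest p per time point among the other genes of each further list, and the 3 probes most correlated with each member. POU4F3, SOX2, PROX1, HEY1, GATA3 and ZNF10 were named outside this rule, after their values were seen. The gene of smallest p at 48 hr in the cell cycle and apoptosis list is not reported here. Alternatives were other background corrections, normalizations, weights, filters, suffixes, blocks and left-out arrays or replicates. Those that leave out or turn single arrays were chosen after seeing the data. Of 1507 gene names, 816 matched a symbol or synonym of the chicken gene table (GRCg7b). Figures were drawn with matplotlib 3.10.9.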

Additional observations from a re-analysis of the deposited data

Results flagged for a closer look

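TRIP15 had all 3 replicate values below 0 at 0 hr and all 3 above 0 at 24 hr, a difference of 0.68 on the log2 scale that was not tested, and with array 2 of suffix 5 in replicate 3 at 0 hr left out or turned 1 of the 0 hr replicates was above 0. Of 54 groups of arrays (each member's ratio and its signal in each RNA, within each biological replicate), 4 held 1 array far from the others, where chance gives about 2.7 at 1 in 20. The TRIP15 log2 ratio was -1.53 on array 1 of suffix 5 in replicate 2 at 48 hr, where the nearest of the other 5 was 0.34, and 0.44 on array 2 of suffix 5 in replicate 2 at 24 hr, where the nearest of the other 3 was 0.020. In the neomycin RNA of replicate 1 at 0 hr, the TRIP15 signal was 1.72 (log2) above the median negative control on array 3 of suffix 5, and -0.020 on the nearest. The CUTL1 neomycin signal of replicate 3 at 24 hr was 2.66 above it on array 1 of suffix 5, and 1.48 on the nearest.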

How the results depend on the processing

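Leaving out 1 replicate at a time turned the sign of TRIP15 at 48 hr (-0.34 to 0.013) and of CUTL1 at 24 hr (-0.86 to 0.31). Without background correction TRIP15 at 24 hr was 0.079. In the same setting CUTL1 at 24 hr was -0.063, against -0.32 as reported. Its difference between 24 and 0 hr was -0.23, against -0.59. With plain subtraction and a floor of 0.5, where 1 array had no CUTL1 value, TRIP15 was -2.10 at 0 hr, with 2.28 between 24 and 0 hr and 1.90 between 48 and 0 hr. Median centring gave -0.12 for CUTL1 at 48 hr, and scaling between arrays 0.23. The deposited ratios, centred, gave -0.023 for TRIP15 at 24 hr and -0.045 and -0.22 for CUTL1 at 0 and 48 hr. Suffix 3 alone gave 0.43 for TRIP15 at 24 hr, 1.11 for its difference between 24 and 0 hr and 0.48 for CUTL1 at 48 hr, and suffix 5 alone -0.081, 0.24 and -0.33. Without the 5 arrays that stood apart, CUTL1 at 48 hr was 0.20. On arrays above the negative controls in either RNA, TRIP15 was -0.45 at 0 hr (11 arrays) and 0.013 at 48 hr (10 arrays), and CUTL1 was 0.091 at 24 hr (8 arrays). The cause of these shifts was not tested. The limma count over all probes was 0 at each time point, but with single arrays and the biological replicate as a random block 37 passed at 24 hr and 4 at 48 hr, and with the quantification date as that block 8, 70 and 41 at 0, 24 and 48 hr, 14 for 48 against 24 hr and 1 for 48 against 0 hr. Arrays of a pool are not independent samples. For the control RNA, 0 passed for 48 against 24 hr without the quantile step. With a replicate block, 0 probes passed between time points and the TRIP15 difference between 24 and 0 hr was again 0.68 (SE 0.24). Deviations of the ratios of same-numbered replicates correlated between -0.16 and 0.065 in 9 pairs, so no pairing by number was seen in the ratios. What both RNAs of a pool share drops out of a ratio, so this cannot show that the samples were unpaired. The signal limits the members too: neither RNA passed the negative controls on 25 of 51 arrays for TRIP15.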
